A study of Homo sapiens with 12 samples.

Results

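DHRS2 and 7 of its relatives named DHRS, for dehydrogenase/reductase of the short-chain family, were followed across 12 RNA-seq libraries of MIA PaCa-2, a human cell line established from a pancreatic cancer. These 8 genes stand among 15090 gene symbols with a value, of which 12789 were tested, the 8 included. DHRS2 was chosen by its measured glutamine difference, the largest fall at 40 mM among well-measured genes, so that difference is a description here and carries no test. The other members, DHRS1, DHRS3, DHRS4, DHRS7, DHRS7B, DHRS11 and DHRS13, were taken by symbol as a comparison. Cells of a genotype labelled WT were kept in RPMI medium without glutamine, to which L-glutamine was added, and all 4 groups of 3 libraries were collected at 48 h. The groups were 40 mM L-glutamine with 0.5 µM gemcitabine, 40 mM without gemcitabine (0 µM), 2 mM with 0.5 µM gemcitabine, and 2 mM without it. Gemcitabine is a nucleoside analogue used against pancreatic cancer. All groups are 1 cell line, and the study describes the replicates as biological.

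Short-chain dehydrogenases/reductases are a large family of enzymes that share a nucleotide-binding fold and use NAD(H) or NADP(H) to interconvert alcohols and carbonyl groups. Their substrates include retinoids, steroids, fatty acyl chains and reactive dicarbonyls. DHRS2, also known as HEP27, reduces dicarbonyl compounds and is found in mitochondria and the nucleus. It has been described to bind the ubiquitin ligase MDM2. DHRS3 and DHRS4 work on retinoids: DHRS3 returns retinal to retinol, and DHRS4, a peroxisomal enzyme, reduces retinal and other carbonyls. DHRS11 acts on steroids and DHRS1 and DHRS7 are enzymes of the endoplasmic reticulum. DHRS7B, from work in mice, takes part in the synthesis of ether lipids.

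DHRS2 and DHRS4 are close relatives, and both lie on chromosome 14. Over 822 aligned coding bases, 590 were identical between them (71.8%). Their promoters are shown because DHRS2 was chosen for its glutamine difference and DHRS4 fell with the drug at both glutamine levels. Each runs from 250 bases before to 50 bases after the annotated start, on the plus strand of GRCh38.p14 as RefSeq gives it, at chr14:23629865-23630164 for DHRS2 and chr14:23953520-23953819 for DHRS4. Capitals mark the letters TATAAA in the DHRS2 promoter and each CG dinucleotide in the DHRS4 promoter.
DHRS2: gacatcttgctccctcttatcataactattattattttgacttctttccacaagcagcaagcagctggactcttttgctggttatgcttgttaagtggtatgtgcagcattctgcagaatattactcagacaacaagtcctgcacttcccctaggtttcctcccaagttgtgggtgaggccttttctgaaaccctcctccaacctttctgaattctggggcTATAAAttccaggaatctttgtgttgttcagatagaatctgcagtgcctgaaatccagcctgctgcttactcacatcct
DHRS4: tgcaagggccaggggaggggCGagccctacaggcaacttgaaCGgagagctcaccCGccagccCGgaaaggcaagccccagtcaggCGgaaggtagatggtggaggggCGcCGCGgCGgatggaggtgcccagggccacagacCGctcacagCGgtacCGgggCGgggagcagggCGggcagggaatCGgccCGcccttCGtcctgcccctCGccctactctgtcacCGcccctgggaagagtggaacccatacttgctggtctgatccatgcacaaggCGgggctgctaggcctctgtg

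The DHRS2 window held no CG dinucleotide and had a GC content of 44%, whereas the DHRS4 window held 20 CG dinucleotides at a GC content of 68.7%. In the DHRS2 window, TATAAA begins 29 bases before the start. Promoters were found for 7 of the 8 members, and the first-listed promoters of DHRS1, DHRS3, DHRS4, DHRS7B, DHRS11 and DHRS13 held between 20 and 36 CG dinucleotides at a GC content of 57.7% to 74.3%. None of those 6 held TATAAA or its reverse complement TTTATA. Over the first-listed promoters of 27305 genes, the median was 14 CG dinucleotides and a GC content of 58.3%. TATAAA, searched on both strands, was in 12% of those promoters, 4.16% held no CG, and 1.44% had both features, as DHRS2 did. These matches describe letters in a window and no activity was measured at them.

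DHRS2 was far lower at 40 mM than at 2 mM glutamine, whether or not gemcitabine was present. In reads per 1000000 (RPM), DHRS2 had 30.8, 30.6 and 34.9 at 40 mM with gemcitabine and 33.7, 33.7 and 29.8 at 40 mM without it, against 60.6, 56.6 and 53.4 at 2 mM with gemcitabine and 60.9, 62.0 and 60.5 at 2 mM without it. Every library at 40 mM lay below every library at 2 mM. Between glutamine levels, groups did not overlap for 31.1% of all tested genes without the drug and 37.4% with it. In the order of the values above, the means were 32.1 ± 2.46, 32.4 ± 2.27, 56.9 ± 3.58 and 61.1 ± 0.786 RPM (SD, n = 3 each). Between 739 and 1733 reads of DHRS2 stood behind each value. Relative to 2 mM, the mean at 40 mM fell by 46.9% without the drug and fell by 43.6% with it. On the log2(RPM + 1) scale, on which all differences below are given, the glutamine difference was −0.90 ± 0.06 without the drug and −0.81 ± 0.06 with it (standard error).

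Those differences are the values that chose the gene. Among the 6395 well-measured genes, those with a mean log2 level no lower than the median over tested genes, DHRS2 had the largest fall in each glutamine comparison. L1CAM, an adhesion molecule, came next, at −0.74 without the drug and −0.61 with it. Among all tested genes, which include those at low level, DHRS2 ranked 6 without the drug and 4 with it. In bulk RNA, fewer cells that make a transcript and less of it in each cell cannot be told apart.

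**Figure D1:**
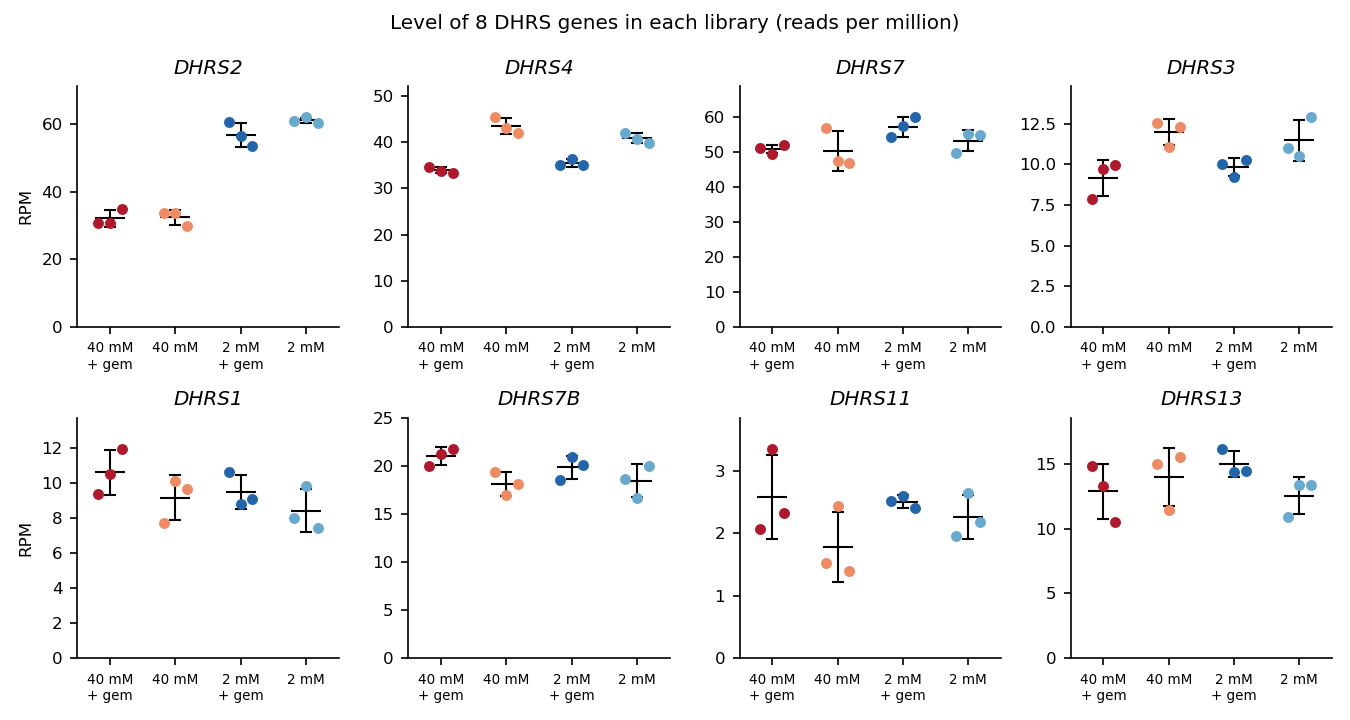
Level of the 8 DHRS genes in every library, in RPM on a linear axis from 0, with groups from left to right 40 mM with gemcitabine, 40 mM, 2 mM with gemcitabine and 2 mM. Points are libraries, long bars means and whiskers SD of 3 libraries. DHRS2 sits at 29.8 to 34.9 RPM in the 6 libraries at 40 mM and at 53.4 to 62.0 RPM in the 6 at 2 mM, while no other panel shows a step of that size. DHRS2 was chosen as the largest such fall among well-measured genes, so this contrast is a description.

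The gemcitabine difference of DHRS2 did not pass the threshold at either glutamine level. At 2 mM the drug difference was −0.10 ± 0.06 with a 95% interval of −0.23 to 0.02, and limma gave an adjusted p of 0.186. At 40 mM it was −0.01 ± 0.06 with an interval of −0.14 to 0.11 (limma adjusted p = 0.89), and its sign turned with another scaling, at 0.03 when all library totals were made equal. These comparisons share their libraries with the glutamine comparisons that chose DHRS2. The groups with and without the drug overlapped at both glutamine levels. The drug response at 40 mM exceeded that at 2 mM by 0.09. This value is also the glutamine difference with the drug minus that without it. It is thus built from the values that chose DHRS2 and is a description with no test. Ordered by mean, the groups ran 2 mM, 2 mM with gemcitabine, 40 mM and 40 mM with gemcitabine. Of the neighbours in this order, the libraries of 2 mM with gemcitabine and 40 mM were the pair that did not overlap. That gap lies across the glutamine difference that chose the gene.

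Set per kilobase of merged exon, so that genes can be compared, DHRS2 was the most abundant of the 8 at 2 mM and not at 40 mM. Its mean level in RPM per kilobase was 18.6 at 40 mM with gemcitabine, 18.8 at 40 mM, 32.9 at 2 mM with gemcitabine and 35.4 at 2 mM. DHRS7 had 22.0, 21.7, 24.7 and 22.9 RPM per kilobase in the same groups, above DHRS2 at 40 mM and below it at 2 mM. DHRS4 had 14.7 to 18.9, level with DHRS2 at 40 mM without the drug (18.9 and 18.8), DHRS7B, DHRS13, DHRS3 and DHRS1 lay between 4.88 and 7.36, and DHRS11 at 1.12 to 1.62 was the least abundant member. Exon lengths came from GENCODE 29, which may not be the annotation the authors counted on.

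Of the 7 relatives, 1 passed in a glutamine comparison, DHRS7 with the drug. Without the drug, 0 of 7 relatives changed (limma, adjusted p under 0.05), against 17.5% of all tested genes (8.41% higher and 9.12% lower), and 0 of 7 had an unadjusted p under 0.05 or passed with voom weights. Their differences ran from −0.24 for DHRS11 to 0.14 for DHRS13, with a median of 0.06 beside 0.00 for all tested genes. With the drug, 1 of 7 fell, DHRS7, and 0 rose, against 13.0% of tested genes lower, 8.62% higher and 21.6% called in all. The median of the relatives there was −0.06, and 4 of the 7 were below 0.

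DHRS7 had 51.3, 49.6 and 52.0 RPM at 40 mM with gemcitabine, against 54.3, 57.5 and 60.0 RPM at 2 mM with gemcitabine. The groups did not overlap, as for 37.4% of all tested genes in this comparison, and the difference was −0.16 ± 0.06 (limma adjusted p = 0.0466). Without the drug it had 57.0, 47.5 and 46.9 RPM at 40 mM, against 49.8, 55.2 and 54.9 RPM at 2 mM, where replicate 1 at 40 mM stood above the other 5 libraries (−0.08, limma adjusted p = 0.372). Without that library the difference was −0.17 and passed (limma adjusted p = 0.0372). The call with the drug was lost with quantile normalization (adjusted p = 0.0737), with equal library totals (0.19), and when replicate 1, 2 or 3 at 40 mM with gemcitabine (0.0878, 0.144 and 0.0648) or replicate 2 or 3 at 2 mM with gemcitabine (0.114 and 0.204) was left out, all by limma.

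**Figure D2:**
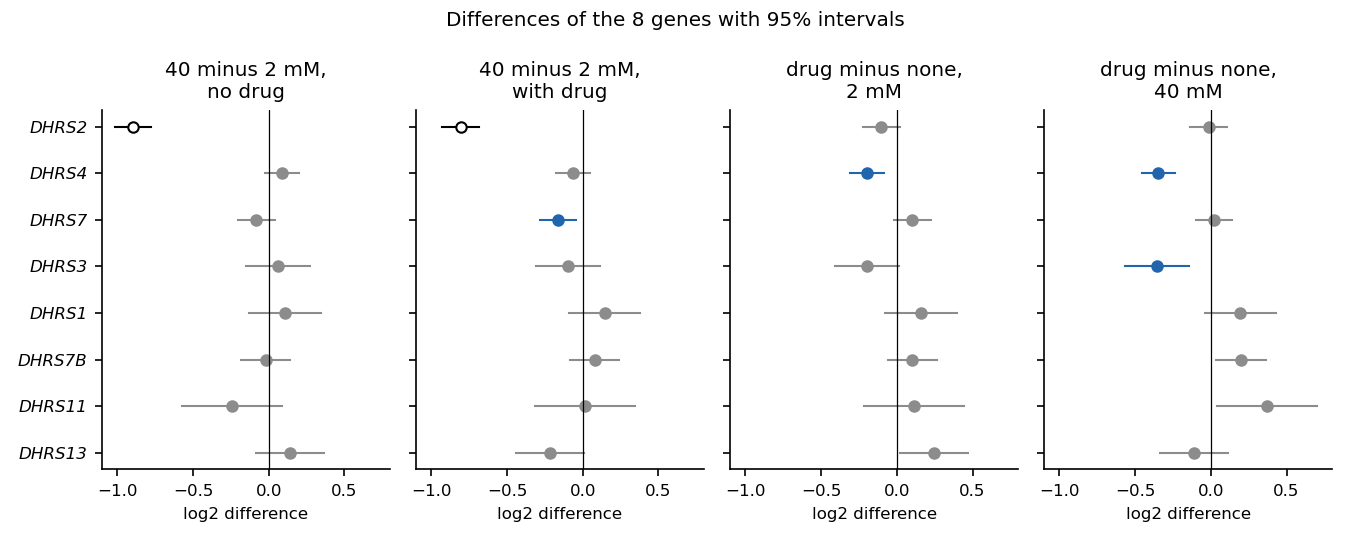
Differences of the 8 genes on the log2(RPM + 1) scale with 95% intervals, in 4 panels: 40 minus 2 mM without and with the drug, and drug minus none at 2 and at 40 mM. Blue points had a limma adjusted p under 0.05, grey points did not, and the open DHRS2 points (−0.90 and −0.81) are those that chose the gene and carry no test; DHRS4 fell in both drug panels, at −0.20 and −0.35.

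With gemcitabine DHRS4 fell at both glutamine levels and DHRS3 fell at 40 mM. At 2 mM, 1 of the 7 relatives fell and 0 rose, against 17.1% of tested genes lower, 17.5% higher and 34.6% in all. At 40 mM, 2 of 7 fell and 0 rose, against 16.2% lower, 14.1% higher and 30.3% in all. The relatives' median was 0.10 at 2 mM and 0.02 at 40 mM, beside −0.01 or closer to 0 for all tested genes.

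DHRS4 had 34.7, 33.8 and 33.4 RPM at 40 mM with gemcitabine, against 45.4, 43.1 and 42.0 RPM at 40 mM without it. At 2 mM it had 35.1, 36.5 and 35.1 RPM with gemcitabine, against 42.0, 40.7 and 39.8 RPM without it. In both pairs every drug-treated library lay below every untreated one. The fall was −0.35 ± 0.05 at 40 mM (limma adjusted p = 5.8e-06) and −0.20 ± 0.05 at 2 mM (limma adjusted p = 0.00504). Relative to the untreated mean, DHRS4 fell by 21.9% at 40 mM and fell by 13.0% at 2 mM. The difference between these responses was −0.15 ± 0.08 and did not pass (limma adjusted p = 0.348). DHRS4 groups also did not overlap between glutamine levels, at 0.09 without and −0.06 with the drug, yet neither passed (limma adjusted p = 0.281 and 0.451). Groups did not overlap for 31.1% and 37.4% of all tested genes in those comparisons, and for 46.1% and 40.6% in the drug comparisons at 2 and 40 mM.

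DHRS3 had 7.87, 9.69 and 9.95 RPM at 40 mM with gemcitabine, against 12.6, 11.1 and 12.3 RPM at 40 mM without it. It fell by 0.36 ± 0.10 (limma adjusted p = 0.00786), and without the lowest library, replicate 1 at 40 mM with gemcitabine, the difference was −0.26 and no longer passed (limma adjusted p = 0.0785). At 2 mM it had 10.02, 9.24 and 10.3 RPM with gemcitabine, against 11.0, 10.5 and 12.9 RPM without it. These groups did not overlap either, but −0.20 ± 0.10 did not pass (limma adjusted p = 0.14).

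The remaining members did not pass in a drug comparison. DHRS7B had 20.0, 21.3 and 21.8 RPM at 40 mM with gemcitabine, all above the 19.4, 17.0 and 18.1 RPM at 40 mM without it, with a difference of 0.20 ± 0.08 (limma adjusted p = 0.0565). It passed with equal library totals (0.24, limma adjusted p = 0.023) and when replicate 1 at 40 mM or replicate 2 at 2 mM was left out (0.0365 and 0.0457). DHRS13, of which little is known, had 16.1, 14.4 and 14.5 RPM at 2 mM with gemcitabine, all above the 10.9, 13.4 and 13.3 RPM at 2 mM without it (0.24 ± 0.11, limma adjusted p = 0.0863), and had −0.11 at 40 mM. DHRS11 lay at 1.39 to 3.35 RPM over the 12 libraries, from 36 to 81 reads, and had 0.37 ± 0.16 with the drug at 40 mM (limma adjusted p = 0.0838), which passed without replicate 1 at 40 mM with gemcitabine or replicate 2 at 40 mM (adjusted p = 0.0496 and 0.0187). DHRS1 lay at 7.45 to 11.9 RPM, with 0.16 and 0.19 with the drug at 2 and 40 mM.

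Whether the drug response depended on glutamine was tested by the interaction, the response at 40 mM minus that at 2 mM. Among the 7 relatives 0 passed, against 2.20% of tested genes (0.727% higher and 1.47% lower, limma). By voom weights 0 passed as well, and 1 had an unadjusted p under 0.05, DHRS13 at −0.36 ± 0.16 (limma adjusted p = 0.259). A response that differs between the glutamine levels was thus not shown for any relative, and the intervals stay wide, from −0.31 to 0.01 for DHRS4 and from −0.46 to 0.14 for DHRS3.

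DHRS4 has a near-identical copy beside it, DHRS4L2. Over 696 aligned coding bases, 677 were identical between DHRS4 and DHRS4L2 (97.3%), so reads could have been split or merged between them in counting, and the values of both are uncertain to that extent. DHRS4L2 averaged 37.3 ± 2.88 RPM at 40 mM with gemcitabine and 46.7 ± 3.47 RPM at 40 mM (SD, n = 3 each), a fall of 0.32 ± 0.07 (limma adjusted p = 0.000466). It averaged 39.4 ± 4.03 RPM at 2 mM with gemcitabine and 45.9 ± 3.04 RPM at 2 mM, a fall of 0.22 ± 0.07 (limma adjusted p = 0.0131). The call at 2 mM was lost without replicate 1 at 2 mM with gemcitabine (−0.13, limma adjusted p = 0.156) and, at −0.18, when replicate 2 at 2 mM was left out (0.0736). DHRS4 and DHRS4L2 both fell with the drug at each glutamine level, and both had higher means at 40 mM than at 2 mM without it, a difference that did not pass for either.

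DHRS4-AS1, the antisense transcript of this locus, averaged 24.8 ± 1.88 RPM at 40 mM with gemcitabine, 26.1 ± 1.06 at 40 mM, 24.4 ± 1.56 at 2 mM with gemcitabine and 30.0 ± 0.262 at 2 mM. The 3 libraries at 2 mM without the drug, at 30.2, 30.2 and 29.7 RPM, stood above the other 9. It fell by 0.29 ± 0.07 with the drug at 2 mM (limma adjusted p = 0.00128), and had −0.07 at 40 mM (limma adjusted p = 0.46), with an interaction that did not pass (0.21, limma adjusted p = 0.279). High glutamine without the drug gave −0.20 ± 0.07 (limma adjusted p = 0.0441), a call lost with equal library totals (adjusted p = 0.0711), when any 1 of the 6 libraries compared was left out (0.059 to 0.15), without replicate 3 at 2 mM with gemcitabine (0.0532), with no filter on low values (0.0504), and when the fit held the 2 groups alone (0.0501). No source used here says whether counting used the strand, so reads of the antisense transcript and of its partners cannot be told apart. DHRS4L1, whose identity to DHRS4 was not computed, was at 0.439 to 0.88 RPM and was not tested.

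**Figure D3:**
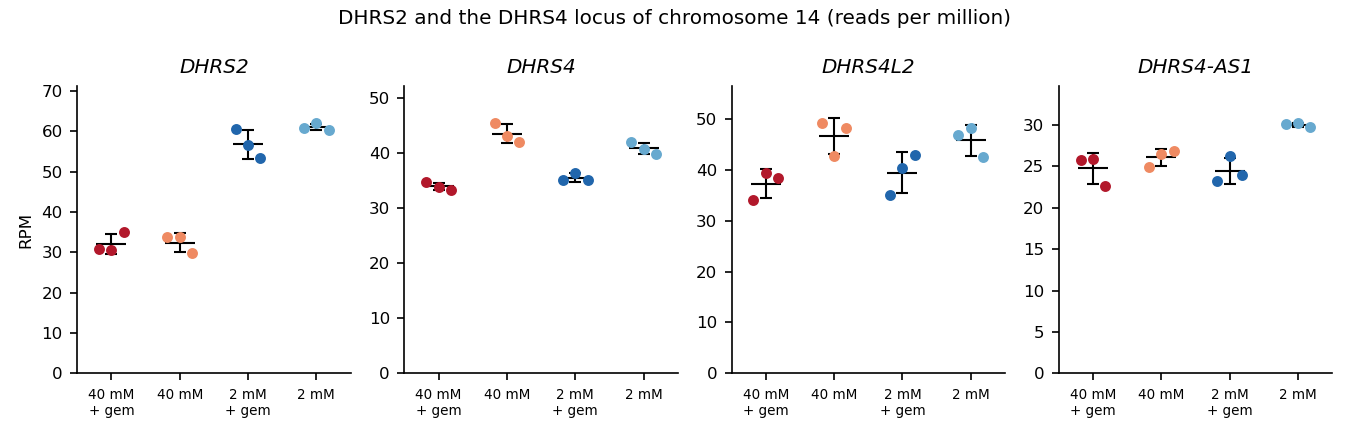
Levels in RPM on linear axes from 0 of DHRS2 and of DHRS4, DHRS4L2 and DHRS4-AS1, in groups from left to right 40 mM with gemcitabine, 40 mM, 2 mM with gemcitabine and 2 mM; points are libraries, bars means and whiskers SD (n = 3). DHRS4 and DHRS4L2 are lower with the drug at both glutamine levels, while DHRS2 is lower at 40 mM.

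The tested genes near DHRS2 did not pass in either glutamine comparison. Of the 10 genes on each side in the RefSeq order, 5 were in the table and 4 were tested, NGDN, THTPA, ZFHX2 and AP1G2. Those 4 lie on the same side of DHRS2, and neither gene directly next to it had a row. With high glutamine 0 of these 4 changed without the drug and 0 with it (limma), with 1 unadjusted p under 0.05 and 0 calls by voom weights in each, against 17.5% and 21.6% of all tested genes. With gemcitabine 1 rose and 1 fell at each glutamine level, against 34.6% of all tested genes called at 2 mM and 30.3% at 40 mM. NGDN, a nucleolar protein, rose by 0.20 at 2 mM and 0.23 at 40 mM (limma adjusted p = 0.0247 and 0.011), and AP1G2, a subunit of a clathrin adaptor, fell by 0.27 at 2 mM (limma adjusted p = 0.00119) and by 0.17 at 40 mM (adjusted p = 0.0489). The AP1G2 call at 40 mM was lost when any 1 of the 6 libraries compared was left out except replicate 3 at 40 mM with gemcitabine (0.0724 to 0.205), and with quantile normalization or equal library totals (0.0636 and 0.147). The NGDN calls were lost at 2 mM without replicate 1 of either group (adjusted p = 0.115 and 0.143) and at 40 mM without replicate 3 at 40 mM with gemcitabine (0.051).

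Among other genes named DHRS or numbered as short-chain dehydrogenases, 5 of a list of 12 were tested, DHRS4L2 and DHRS4-AS1 among them. With gemcitabine 2 fell and 0 rose at each glutamine level, against 34.6% and 30.3% of all tested genes called at 2 and 40 mM. High glutamine gave 1 lower and 0 higher without the drug, where 9.12% of all tested genes fell and 8.41% rose. With the drug 0 of 5 passed by limma, where 21.6% of all tested genes were called. There 0 of 5 had an unadjusted p under 0.05, and 0 passed by voom. DHRS12 was the other that fell, at 5.06 ± 0.373 RPM at 40 mM with gemcitabine against 6.85 ± 1.14 RPM at 40 mM (−0.37 ± 0.13, limma adjusted p = 0.0291). That call was lost without replicate 1 or 2 at 40 mM with gemcitabine (adjusted p = 0.11 and 0.0506), and likewise when either of those replicates at 40 mM was left out (0.167 and 0.0745).

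In the wider family, 38 of 53 listed genes were tested. High glutamine without the drug raised 3 and lowered 3 (list median 0.01 beside 0.00 for all tested genes), where 8.41% of all tested genes rose and 9.12% fell. With the drug it raised 2 and lowered 1 (median 0.01), where 8.62% rose and 13.0% fell. HSD17B4, a peroxisomal enzyme of fatty acid oxidation, rose in both, to 105.3 ± 2.16 RPM at 40 mM against 90.7 ± 2.78 RPM at 2 mM without the drug (0.21 ± 0.04, limma adjusted p = 0.000158), and by 0.17 ± 0.04 with it (limma adjusted p = 0.0019). HSD3B7, a steroid dehydrogenase of bile acid synthesis, and DECR1, a mitochondrial enzyme of unsaturated fatty acid oxidation, rose without the drug by 0.21 and 0.22 (limma adjusted p = 0.00173 and 0.00938). Those that fell without the drug were NDUFA9, a subunit of respiratory complex I (−0.15, limma adjusted p = 0.00704), HSD17B7, an enzyme of cholesterol synthesis (−0.22, adjusted p = 0.0224), and HSD11B2, which inactivates cortisol (−0.56, adjusted p = 0.0253). HSD11B2 was near the level needed for testing, at 1.40 ± 0.595 RPM at 40 mM against 2.47 ± 0.299 RPM at 2 mM, and its difference was −0.27 with a pseudocount of 4 and −0.87 with voom weights. These calls were lost without single libraries: NDUFA9 without replicate 3 at 40 mM (0.0576), HSD17B7 without replicate 1 at 40 mM (−0.14, 0.175) or replicate 2 at 2 mM (0.133), and HSD11B2 without replicate 1 or 2 at 40 mM (0.153 and 0.0669) or replicate 3 at 2 mM (0.0937). With the drug, HTATIP2 rose by 0.16 (limma adjusted p = 0.00549, but 0.0582 without replicate 3 at 40 mM with gemcitabine), and HSD17B10, a mitochondrial enzyme, had −0.15 (adjusted p = 0.0487). The HSD17B10 call was lost with equal library totals (−0.10, adjusted p = 0.206) and when any 1 of the 6 libraries compared was left out except replicate 1 at 2 mM with gemcitabine (0.0792 to 0.184).

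With gemcitabine 5 of the 38 fell and 1 rose at 2 mM, where 17.1% of all tested genes fell and 17.5% rose. At 40 mM 8 fell and 0 rose, where 16.2% fell and 14.1% rose. HSD3B7 fell to 60.7 ± 0.772 RPM at 40 mM with gemcitabine against 90.5 ± 3.44 RPM at 40 mM (−0.57 ± 0.05, limma adjusted p = 2.39e-11) and by 0.40 ± 0.05 at 2 mM (limma adjusted p = 5.38e-08). MAT2B, the regulatory subunit of methionine adenosyltransferase, fell by 0.19 at both levels, and BLVRB, a biliverdin reductase, by 0.18 at both (limma adjusted p between 0.000429 and 0.000628). NDUFA9 fell by 0.21 at 2 mM and 0.13 at 40 mM (limma adjusted p = 0.00011 and 0.00959, the second 0.072 with equal library totals). HSD17B7 fell by 0.32 at 2 mM (limma adjusted p = 0.000448), and GMDS, an enzyme of GDP-fucose synthesis, by 0.26 at 40 mM (adjusted p = 0.00258). The medians of the list were −0.02 at both levels. By limma 0 of 38 passed the interaction, against 2.20% of all tested genes. An unadjusted p under 0.05 was reached by 3 of the 38, and 0 passed by voom.

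DHRS3 and DHRS4 belong to the set of genes that handle retinoids, in which vitamin A is taken up, oxidised to retinal and on to retinoic acid, and read by nuclear receptors. Of 31 such genes 14 were tested, these members included. High glutamine lowered 4 and raised 0 without the drug (list median −0.08) and lowered 4 and raised 0 with it (median −0.18, against 0.00 for all tested genes). Of all tested genes 9.12% fell and 8.41% rose without the drug, and 13.0% fell and 8.62% rose with it. STRA6, the membrane receptor that takes up retinol, fell in both, to 23.3 ± 1.61 RPM at 40 mM with gemcitabine against 29.3 ± 1.13 RPM at 2 mM with gemcitabine (−0.32 ± 0.07, limma adjusted p = 0.000959), and to 27.1 ± 1.96 RPM at 40 mM against 32.8 ± 2.43 RPM at 2 mM (−0.27 ± 0.07, limma adjusted p = 0.00694). The call without the drug was lost without replicate 2 at 40 mM (adjusted p = 0.0535). RARA, a retinoic acid receptor, had −0.24 without the drug (limma adjusted p = 0.0234), a call lost without replicate 2 of either group (0.109 and 0.141). RETSAT, which saturates retinol, fell by 0.16 without and 0.20 with the drug (limma adjusted p = 0.00911 and 0.000857), and ALDH1A3, which makes retinoic acid, fell by 0.27 with it (adjusted p = 0.000424).

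ALDH1A1, another enzyme that makes retinoic acid, averaged 1089 ± 15.2 RPM at 40 mM with gemcitabine, 1567 ± 12 at 40 mM, 1263 ± 35.3 at 2 mM with gemcitabine and 1655 ± 16.9 at 2 mM (SD, n = 3 each). It fell with gemcitabine by 0.52 ± 0.03 at 40 mM (limma adjusted p = 2.52e-17) and by 0.39 ± 0.03 at 2 mM (adjusted p = 4.88e-14). Its glutamine difference with the drug was −0.21 ± 0.03 (limma adjusted p = 2.4e-07), and that without the drug, −0.08 (limma adjusted p = 0.0306), turned to 0.03 with quantile normalization, under which the one with the drug also no longer passed (adjusted p = 0.149). The call without the drug was also lost with equal library totals (adjusted p = 0.104) and when replicate 1 or 3 of either group was left out (0.0535 to 0.0983).

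Gemcitabine lowered 4 and raised 2 of the 14 at 2 mM, and lowered 6 and raised 1 at 40 mM, with DHRS4 among the falls at both and DHRS3 at 40 mM. Of all tested genes 34.6% were called at 2 mM and 30.3% at 40 mM, and nothing particular to the list was tested. RARG, another retinoic acid receptor, fell by 0.50 ± 0.06 at 40 mM and 0.44 ± 0.06 at 2 mM (limma adjusted p = 2.34e-08 and 2.81e-07). RBP4, which carries retinol in blood, rose at a low level, to 2.61 ± 0.378 RPM at 40 mM with gemcitabine against 0.937 ± 0.069 RPM at 40 mM (0.90 ± 0.17, limma adjusted p = 8.77e-05), a difference of 0.42 with a pseudocount of 4 and 1.46 with voom weights. At 2 mM RBP4 had 0.82 (limma adjusted p = 0.000227), 0.41 with that pseudocount and 1.30 with voom weights. ALDH1A3 rose by 0.26 at 2 mM (limma adjusted p = 0.000318).

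**Figure D4:**
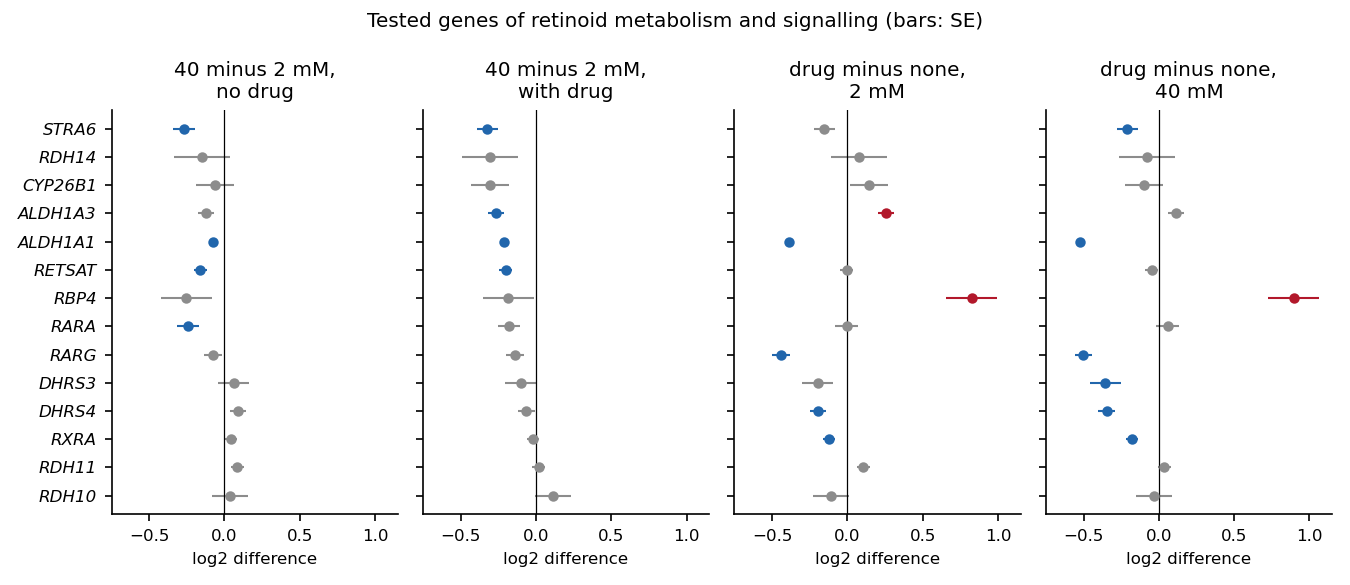
Differences of the 14 tested retinoid genes on the log2(RPM + 1) scale with standard errors, in panels for 40 minus 2 mM glutamine without and with the drug and for drug minus none at 2 and 40 mM. Blue points fell and red points rose at a limma adjusted p under 0.05, and grey points did not pass. Both glutamine panels hold 4 falls and 0 rises. Of all tested genes 9.12% fell and 8.41% rose without the drug, and 13.0% fell and 8.62% rose with it. The calls of STRA6, RARA and ALDH1A1 without the drug, and that of ALDH1A1 with it, were lost in some alternative runs.

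Since DHRS2 has been tied to MDM2, the genes MDM2, MDM4 and CDKN1A were read beside it. MDM4, a relative of MDM2, was higher at 40 mM in both glutamine comparisons, at 26.8 ± 1.74 RPM at 40 mM with gemcitabine against 19.2 ± 1.30 RPM at 2 mM with gemcitabine (0.46 ± 0.07, limma adjusted p = 2.24e-05), and at 25.2 ± 1.36 RPM at 40 mM against 21.0 ± 1.21 RPM at 2 mM (0.25 ± 0.07, limma adjusted p = 0.0152). The call without the drug was lost without replicate 1 at 40 mM or replicate 2 at 2 mM (adjusted p = 0.0744 and 0.0764). MDM2 rose with the drug at 40 mM, at 56.1 ± 1.03 RPM with gemcitabine against 50.04 ± 2.40 RPM without it (0.16 ± 0.05, limma adjusted p = 0.00961, but 0.0567 without replicate 1 at 40 mM). MDM2 did not pass with glutamine, at −0.08 without and 0.07 with the drug (limma adjusted p = 0.246 and 0.333). CDKN1A, which restrains cyclin-dependent kinases, rose with the drug, to 8.65 ± 1.16 RPM at 40 mM with gemcitabine against 3.40 ± 1.09 RPM at 40 mM (1.16 ± 0.15, limma adjusted p = 9.61e-08), and by 0.84 ± 0.15 at 2 mM (adjusted p = 2.55e-05). Its glutamine difference with the drug did not pass (−0.16, limma adjusted p = 0.466). Without the drug CDKN1A had 3.40 ± 1.09 RPM at 40 mM against 5.05 ± 0.724 RPM at 2 mM (−0.49 ± 0.15, limma adjusted p = 0.0171), a call that ended when replicate 2 at 40 mM was left out (−0.26, adjusted p = 0.203), and likewise for replicate 1 at 2 mM (−0.41, 0.0896), and its size was −0.30 with a pseudocount of 4.

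Genes whose level followed that of DHRS2 most closely were sought among the 6394 other well-measured genes by Pearson's r of log2 values over the 12 libraries. The highest were PIM3, a serine/threonine kinase (0.97), SHC1, an adaptor of receptor tyrosine kinases (0.97), ETS1, a transcription factor (0.97), IMPDH2, an enzyme of guanine nucleotide synthesis (0.97), and AXL, a receptor tyrosine kinase (0.97). The lowest were ZC3H7A (−0.97), YIPF6 (−0.96), KLHDC2 (−0.96), the transferrin receptor TFRC (−0.96) and CUBN, an endocytic receptor (−0.95). The libraries share a cell line, a table and the step between 2 and 40 mM glutamine, so these r values describe mainly that step. It was smaller in each of the 10: AXL had −0.34 without and −0.31 with the drug, and ZC3H7A had 0.35 and 0.29. For the 5 highest this was fixed in advance, since DHRS2 was chosen as the largest fall among well-measured genes. By rank correlation 1 of the 10 stayed among the 5 at its end, and with quantile normalization 7 did. Among the relatives, r with DHRS2 was 0.56 for DHRS7 and between −0.34 and 0.25 for the other 6.

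**Figure D5:**
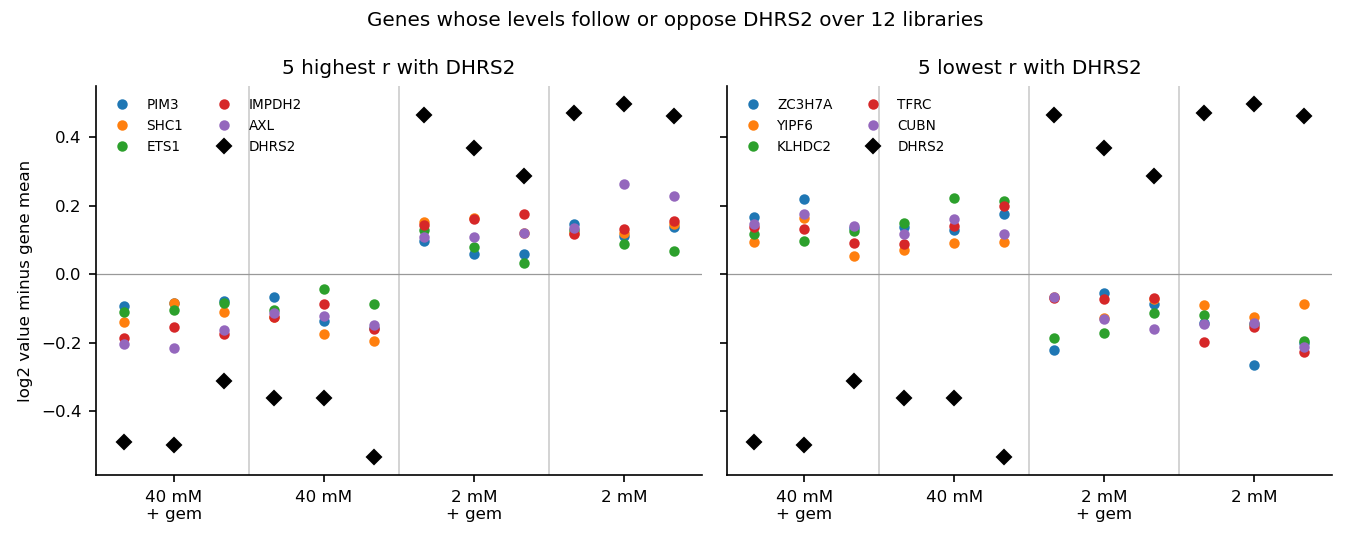
Log2(RPM + 1) value minus the gene's mean in each of the 12 libraries, for DHRS2 (black diamonds) and the 5 genes with the highest (left) and lowest (right) r with it; groups run from left to right 40 mM with gemcitabine, 40 mM, 2 mM with gemcitabine and 2 mM. All 11 genes step between the glutamine levels, and the step of DHRS2 is the widest. In the left panel this follows from its choice as the largest fall among well-measured genes.

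The libraries held between 21723094 and 32811746 reads over the listed genes. The line's epithelial markers KRT8, KRT18, KRT19 and MUC1 were present (4 of 7 in the list; KRT7, EPCAM and CDH1 have no row), and so were VIM and ZEB1 (2 of 3 mesenchymal markers). The epithelial sum was 2941 to 3003 RPM at 40 mM with gemcitabine and 2416 to 2519 at 40 mM. At 2 mM it was 4169 to 4211 with gemcitabine and 3058 to 3193 without it. It was thus lower at 40 mM, as DHRS2 was, but also higher with gemcitabine, where the DHRS2 difference did not pass. The mesenchymal sum was 2988 to 3041 RPM at 40 mM and 3185 to 3307 at 2 mM with gemcitabine. Without gemcitabine it was 3297 to 3455 at 40 mM and 3422 to 3535 at 2 mM. The part of these marker differences in the DHRS2 result was not tested. Of markers of other cells, 0 of 5 acinar and 0 of 3 endocrine genes had a row, 1 of 3 immune and 1 of 3 endothelial markers stayed at or below 0.66 RPM, and 2 of 4 fibroblast markers summed to 12.4 to 16.2 RPM.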

How the data were processed

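Total RNA of 12 libraries was extracted with a column kit and sequenced by a company, per the labels. For the aligner, genome build, counter and strand handling, nothing is given in the sources used here. The authors deposited 1 table of log2 values, whose columns, per the file headers, are named as in the sample titles. The deposited log2 unit was read from the values as log2(RPM + 1), with RPM the reads per 1000000 after scaling between libraries, since 100% of values came out as whole reads within 0.05 read. Linear RPM and reads were computed back from them. Genes with at least 1 RPM in at least 3 libraries were tested (12789 of 15090). Deposited log2 values entered limma 3.58.1 (R 4.3.3) as 4 group means, with moderation that follows the mean-variance trend. P-values were two-sided and adjusted by Benjamini-Hochberg over all tested genes, with a threshold of 0.05. Count models were not used because the deposited unit is log2; limma with voom weights, run on reads computed back from RPM, was an alternative, beside other pseudocounts (0.5 and 4), filters, scalings and left-out libraries. The log2(RPM + 1) scale understates changes of low genes. P-values measure the spread between the deposited replicates. The precision of a value rests on its reads, and counting error is the least error it has.

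The members and gene lists were chosen with earlier results of these data known. Named are all 8 members, the gene next to DHRS2 in the ranking of falls, the 5 highest and lowest correlations with DHRS2, and, of the up to 4 genes by smallest p from each list and comparison, those past the threshold; DHRS4L1, HSD11B2, BLVRB at 2 mM, NDUFA9 at 40 mM with the drug and HSD17B7 without the drug lie outside this rule and were named after their values were seen, and 1 listed gene is not reported here. Within groups, chi-square over degrees of freedom of the reads ranged over 2.36 to 5.43, so each library counts as 1 replicate. Promoters were read from RefSeq tables (GRCh38.p14), and coding identity and exon lengths from GENCODE 29 (Biopython 1.88, pandas 2.3.3, Python 3.11.15). The fit was tested on simulated data.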

Additional observations from a re-analysis of the deposited data

Results flagged for a closer look

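ALDH1A1 is an enzyme of retinoic acid synthesis listed beside DHRS3 and DHRS4. In the main fit its drug response passed the threshold for a difference between the glutamine levels. ALDH1A1 was the 1 gene called of the 14 tested retinoid genes, against 2.20% of all tested genes. Gemcitabine gave −0.52 ± 0.03 at 40 mM and −0.39 ± 0.03 at 2 mM on the log2 scale, and the interaction was −0.13 ± 0.04 (limma adjusted p = 0.0435). All 3 libraries at 40 mM with gemcitabine lay below the 9 others. The interaction did not pass with equal library totals (−0.10, adjusted p = 0.148), with quantile normalization (−0.10, adjusted p = 0.293), with a pseudocount of 4 (−0.13, adjusted p = 0.0518), with no filter on low values (−0.13, adjusted p = 0.053), or when 1 library was left out (adjusted p = 0.0503 to 0.142), except replicate 2 at 2 mM with gemcitabine.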

How the results depend on the processing

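DHRS2 kept the direction of its glutamine difference in every alternative run, at −0.93 to −0.84 without and −0.87 to −0.75 with the drug. That difference chose the gene and its groups did not overlap, so leaving out a library could not turn the sign. These runs are therefore no support for it. DHRS4 kept both drug calls. The number of relatives called with high glutamine and the drug was 0 with quantile normalization, with equal library totals and with the replicate number as a block, and 0 to 1 over left-out libraries; without the drug it was 0 to 1 and for the drug at 40 mM 2 to 3 over left-out libraries. For the drug at 2 mM it was 2 when the fit held the 2 groups alone (DHRS13). The genes called for the interaction numbered 155 to 366 over left-out libraries, against 281. Of the 10 genes most like DHRS2, 1 stayed by Spearman's rho. The causes of these changes were not tested.

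Signs turned for DHRS11 with glutamine and drug (−0.045, quantile normalization), DHRS2 with the drug at 40 mM (0.026, equal totals) and ALDH1A1 with glutamine alone (0.034, quantile normalization). Over left-out libraries the ranges were, with glutamine alone, −0.088 to 0.038 for DHRS7B and −0.029 to 0.086 for DHRS4L2; with glutamine and drug, −0.13 to 0.12 for DHRS11 and −0.017 to 0.080 for DHRS4-AS1; with the drug at 40 mM, −0.075 to 0.018 for DHRS2, −0.028 to 0.11 for DHRS7 and −0.24 to 0.012 for DHRS13; for the interaction, −0.073 to 0.11 for DHRS1 and −0.13 to 0.0084 for DHRS7.

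Deviations of same-numbered libraries correlated weakly, at −0.08 to 0.05 with 0 of 18 pairs over 0.1, and those of other numbers at −0.08 to 0.09. Of the 12 libraries, 7 correlated best with their own number. These values do not settle whether replicate numbers pair the samples. With the replicate block the genes called numbered 2292, 2786, 4424, 3893 and 306 in the 5 comparisons, and the change among the members was the loss of DHRS7 with glutamine and drug (adjusted p = 0.0508). Depth limits DHRS11, with 36 to 81 reads, most.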
